A study of Rattus norvegicus with 6 samples.

Results

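Endothelial cells line the brain's blood vessels and form the blood-brain barrier. Tight junction proteins close the gaps between neighbouring cells, and carriers in their membranes take up glucose and other nutrients while efflux pumps return foreign compounds to the blood. Receptors for vascular growth factors keep these vessels in place and set how readily they open or sprout. The 10 genes described here cover these roles: the junction and adhesion proteins Cldn5, Ocln, Esam and Pecam1, the growth factor receptors Flt1 and Tek, the clotting protein Vwf, and the transporters Slco1a4, Abcb1a and Slc2a1. They were named as a list of known endothelium and barrier genes. A probe set was taken where one of them was its only gene symbol in the platform annotation, which gave 15 probe sets of 31042 tested and 10 genes of 14217 measured. One further probe set, 1370583_s_at, carries the symbols of Abcb1a and its close copy Abcb1b and was left out of the gene values.

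The samples were the contralateral prelimbic cortex (PL) of male Sprague Dawley rats, 6 to 7 weeks of age when acquired, dissected 14 days after surgery. In the 3 samples of the SNI group the tibial and common peroneal nerves of the left leg had been cut and the sural nerve spared (spared nerve injury), and in the 3 samples of the control group the same nerves had been exposed under anesthesia but left whole. RNA of each sample was read on an Affymetrix GeneChip Rat Genome array, on which a gene is read by 1 or more probe sets of short probes. Neither labels nor methods tie each sample to a separate rat, so a p-value here reflects the scatter of these 6 arrays, part of which may be technical. Each deposited log2 value is relative to the median of its probe set over the 6 samples, which allows the groups to be compared but gives no expression level and no order of levels between genes, and the endothelial markers could not show how much endothelium the tissue held. In such tissue RNA, fewer cells of a type and less RNA per cell cannot be told apart.

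The 18 hybridization control probe sets, which read transcripts added before hybridization, were all higher on the SNI arrays. Their mean was 0.11 ± 0.070 in SNI samples, against −0.16 ± 0.097 in control samples (SD, n = 3 each). The groups did not overlap on 17 of these probe sets, so fits with their mean as a covariate cannot separate it from the injury. The control samples varied more than the SNI samples in 70.6% of all genes and in 8 of the 10 endothelium and barrier genes. Markers of other cells also stood apart between the groups. The mean of 9 microglia markers lay between 0.075 and 0.17 in the SNI samples, against −0.18 to −0.080 in the control samples. The mean of 5 blood cell markers lay between 0.036 and 0.25 in SNI and between −0.20 and −0.016 in control, and that of 8 neuron markers between −0.11 and −0.015 in SNI and between 0.0074 and 0.18 in control. The part of these shifts in the results on the 10 genes was not tested.

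The groups did not overlap on 1 probe set each of Cldn5, Flt1, Slco1a4 and Slc2a1. The bases before the transcription start of these 4 genes are shown here, because these are the genes the results turn on. They come from RefSeq (build GRCr8), which matched 6 of the 10 genes, and each runs 5′ to 3′ over the 250 bases before the annotated start.
Cldn5 (chr11:95718599-95718848, minus strand): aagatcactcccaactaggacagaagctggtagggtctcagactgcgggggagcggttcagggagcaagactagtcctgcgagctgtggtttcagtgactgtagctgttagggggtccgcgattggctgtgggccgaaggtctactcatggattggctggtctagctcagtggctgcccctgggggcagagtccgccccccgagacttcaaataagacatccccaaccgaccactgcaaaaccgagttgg
Flt1 (chr12:12333180-12333429, plus strand): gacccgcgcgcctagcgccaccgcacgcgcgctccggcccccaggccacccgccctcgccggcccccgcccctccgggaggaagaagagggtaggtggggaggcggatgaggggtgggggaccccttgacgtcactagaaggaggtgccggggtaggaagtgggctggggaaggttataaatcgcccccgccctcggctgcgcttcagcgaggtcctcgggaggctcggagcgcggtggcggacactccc
Slco1a4 (chr4:176495847-176496096, minus strand): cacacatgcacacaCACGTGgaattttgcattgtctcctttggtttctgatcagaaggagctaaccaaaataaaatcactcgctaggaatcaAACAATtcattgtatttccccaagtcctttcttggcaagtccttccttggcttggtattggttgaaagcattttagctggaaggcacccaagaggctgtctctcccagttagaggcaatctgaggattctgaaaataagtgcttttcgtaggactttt
Slc2a1 (chr5:138002272-138002521, plus strand): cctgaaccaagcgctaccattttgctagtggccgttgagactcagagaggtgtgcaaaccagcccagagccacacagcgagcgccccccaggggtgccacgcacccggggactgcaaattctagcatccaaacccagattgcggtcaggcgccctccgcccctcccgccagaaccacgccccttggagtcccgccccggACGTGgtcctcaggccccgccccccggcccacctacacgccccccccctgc
Capitals mark matches, on either strand, to 1 exact string, called its core here, for each motif bound by endothelial transcription factors. These were CCGGAA (ETS factors), AACAAT (SOX factors), TAAACA (forkhead factors), CTTTGA (TCF/LEF factors of the Wnt pathway) and ACGTG (hypoxia-inducible factors). Slc2a1 held 1 match to the hypoxia core, which occurs in 16.6% of 33469 rat promoters of this length. Slco1a4 held 2 overlapping matches to it, 1 on each strand, and 1 SOX match (10.3% of promoters). No match to the ETS core (12.6%), the forkhead core (12.1%) or the TCF/LEF core (13.9%) was in these 4 windows, and none of the 5 cores was in those of Cldn5 and Flt1. The shorter GGAA within the ETS string was not searched on its own and is present in the windows of Flt1 and Slco1a4. The windows of Cldn5, Flt1 and Slc2a1 held 58.4%, 73.2% and 68.4% G or C and that of Slco1a4 42.4%, where the median promoter held 51.2%.

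In two-sided limma fits, with p-values adjusted after Benjamini and Hochberg over all genes or all probe sets, none of the 15 probe sets and none of the 10 genes passed an adjusted p of 0.05. At that threshold 0.0226% of all probe sets passed as higher and 0.00966% as lower in the SNI group, and no gene passed by limma or by the methods' t-test. The adjusted p ranged from 0.124 to 0.976 over the member probe sets and from 0.248 to 0.990 over the member genes. At an unadjusted p under 0.05, 3 of the 10 genes were higher in the SNI group, Cldn5, Slco1a4 and Slc2a1, where 3.96% of all genes (563) were. None of the 10 was lower at that p, where 9.19% of all genes (1307) were. By probe set, 4 of 15 were higher (5.6% of all probe sets) and none was lower (7.47%). The same 3 genes and 4 probe sets had every SNI sample above every control sample, as did 6.39% of all genes and 8.35% of all probe sets, and none of the 15 lay wholly below (11.2% of all probe sets).
Of the 10 genes, 9 had a difference above 0, as did 45.2% of all genes, and so had 12 of the 15 probe sets (49.6% of all). Their median log2 difference, SNI minus control, was 0.089, while that of all genes was −0.011. The differences lay between −0.0046 for Abcb1a and 0.24 for Slco1a4, a fold change of 1.18 at most. The smallest two-sided p that an exact permutation test allows with 3 samples a group is 0.1, and Cldn5, Slco1a4 and Slc2a1 reached it. Every gene whose groups do not overlap reaches it (6.39% of all genes with SNI above control, 13.7% with SNI below), so it adds nothing to that count.

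**Figure D1:**
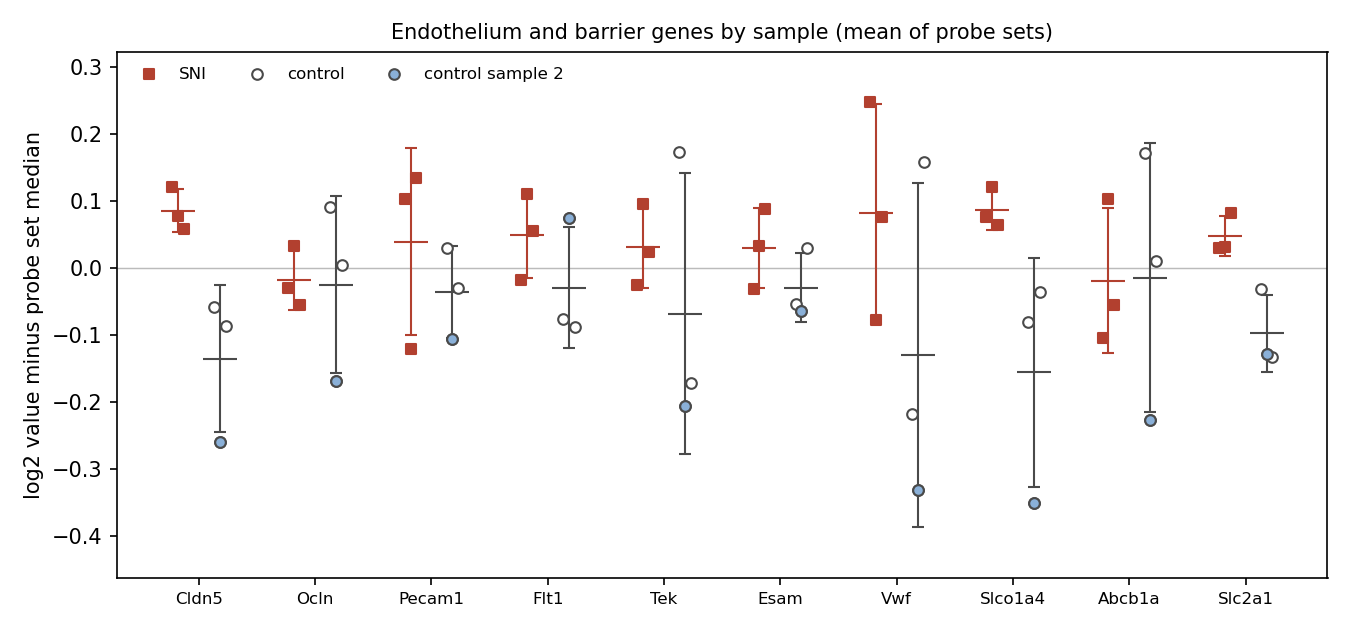
Value of each sample for the 10 genes (x axis), as the mean over the probe sets of the gene of the log2 value minus the probe set's median (y axis). Filled squares are the 3 SNI samples and circles the 3 control samples, with control sample 2 in blue, and bars show the mean and SD. For Cldn5, Slco1a4 and Slc2a1 all SNI squares lie above all control circles, and control sample 2 is the lowest of the 6 for 7 genes.

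Of the junction and adhesion genes, Cldn5, the claudin that seals the tight junctions of brain endothelium, stood apart most. Its values were 0.12, 0.079 and 0.058 in the SNI samples, against −0.058, −0.26 and −0.086 in the control samples. All 3 SNI samples lay above the control samples, and control sample 2 was the farthest. The log2 difference was 0.22 (SE 0.067, 95% confidence interval 0.066 to 0.38, adjusted p = 0.248), a fold change of 1.17. Without control sample 2 it was 0.16 (adjusted p = 0.146), and with the hybridization controls as a covariate 0.081 (adjusted p = 0.879).
Ocln, which encodes occludin, a membrane protein of the same junctions, had values of −0.030, 0.033 and −0.054 in SNI and 0.092, −0.17 and 0.0042 in control. The 3 SNI samples lay within the range of the control samples. The log2 difference was 0.0074 (95% confidence interval −0.17 to 0.18, adjusted p = 0.980), with −0.021 on probe set 1378753_at and 0.036 on 1398281_at. Its sign turned without control sample 2 (−0.065), without SNI sample 2 (−0.018) and with the covariate (−0.13).
Esam, an adhesion molecule at endothelial junctions, was at −0.031, 0.034 and 0.089 in SNI and at −0.053, −0.064 and 0.031 in control. The highest control sample lay inside the SNI range, and the groups differed by 0.059 (95% interval −0.075 to 0.19, adjusted p = 0.713). This was 0.030 without SNI sample 3, 0.090 without SNI sample 1, 0.089 without control sample 3 and 0.16 with the covariate. Pecam1, an adhesion molecule of endothelium that blood leukocytes and platelets also carry, was at 0.10, −0.12 and 0.14 in SNI and at 0.030, −0.11 and −0.030 in control. SNI sample 2 was the lowest of the 6. The difference of Pecam1 was 0.075 (95% confidence interval −0.11 to 0.26, adjusted p = 0.734). It was 0.15 without SNI sample 2, 0.043 without SNI sample 1, 0.027 without SNI sample 3, 0.040 without control sample 2 and −0.14 with the covariate.

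Flt1, a receptor for the growth factors Vegfa, Vegfb and Pgf, was the member whose probe sets lay farthest apart. On 1377113_at its values were 0.24, 0.10 and 0.15 in SNI, against −0.12, −0.38 and −0.11 in control. The groups did not overlap there, and the difference of 0.37 (SE 0.088, adjusted p = 0.156) was the largest of the 15 probe sets, or 0.17 with the hybridization controls as a covariate (adjusted p = 0.807). On 1370492_a_at the values were −0.20, 0.094 and −0.022 in SNI and −0.060, 0.36 and 0.022 in control. Control sample 2, the lowest sample on the first probe set, was the highest here, and the difference was −0.15 (adjusted p = 0.675), or −0.023 without that sample. The third, 1369087_at, also had control sample 2 highest (0.25), with a difference of 0.016 (adjusted p = 0.976), or 0.135 without that sample. 
Within each sample, 1377113_at minus 1370492_a_at gave 0.44, 0.010 and 0.17 in SNI and −0.064, −0.74 and −0.13 in control, a difference between the groups of 0.52, or 0.30 without control sample 2. The groups did not overlap, with an exact permutation p of 0.1, the smallest possible, and 0.3 after adjustment over the 6 pairs of probe sets that read the same member. The same held for 1369087_at minus 1370492_a_at, with a smaller difference between the groups of 0.17, or 0.16 without control sample 2. For 1377113_at minus 1369087_at the groups overlapped (0.35, or 0.14 without control sample 2). The annotation gives these probe sets different accessions (BF415786, AF157595 and NM_019306) and does not say which transcript forms they read. Averaged over the 3 probe sets, Flt1 differed by 0.078 (95% interval −0.075 to 0.23, adjusted p = 0.666), while their median differed by −0.011. The averaged difference was 0.13 without control sample 2, 0.049 without control sample 3, 0.048 without SNI sample 2 and 0.22 with the covariate.
Tek, the receptor for angiopoietins that stabilizes vessels, was at −0.025, 0.096 and 0.025 in SNI and at 0.17, −0.21 and −0.17 in control. Control sample 1 was above every SNI sample and the other controls were below them. The difference of Tek was 0.10 (95% confidence interval −0.13 to 0.33, adjusted p = 0.724), 0.031 without control sample 2, 0.048 without control sample 3, 0.22 without control sample 1 (adjusted p = 0.306) and −0.20 with the covariate.

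**Figure D2:**
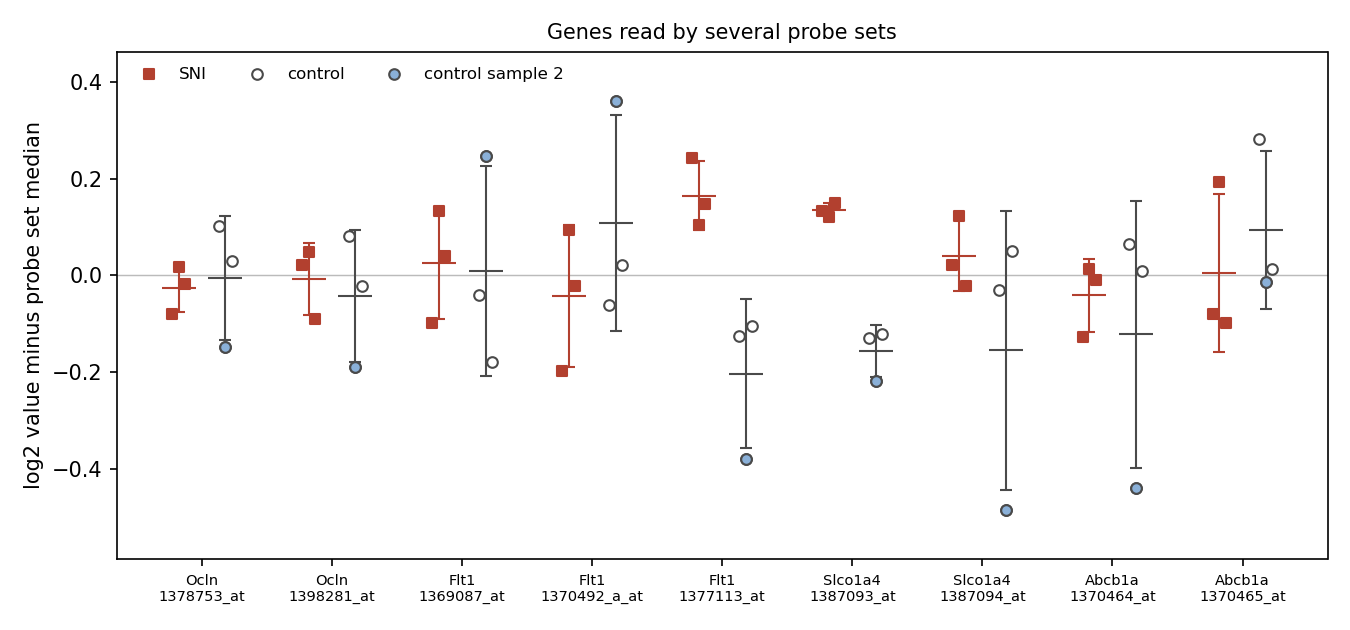
Values of each sample on the 9 probe sets of the 4 genes read by more than 1 probe set (x axis), as the log2 value minus the probe set's median (y axis). Filled squares are SNI samples and circles control samples, with control sample 2 in blue, and bars show the mean and SD; for Flt1, control sample 2 is lowest on 1377113_at (−0.38) and highest on 1370492_a_at (0.36).

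Vwf, the clotting factor that endothelium stores and secretes, varied most within the SNI group. It was at 0.25, −0.077 and 0.077 in SNI and at −0.22, −0.33 and 0.16 in control. The groups overlapped, because control sample 3 was above 2 of the SNI samples. The difference was 0.21 (95% confidence interval −0.096 to 0.52, adjusted p = 0.547), 0.36 without control sample 3 (adjusted p = 0.386), 0.13 without SNI sample 1 and 0.11 without control sample 2. In control sample 3 the mean of the 10 markers of meninges and fibroblasts was also high, at 0.92, where the other samples lay between −0.29 and 0.32. Single markers in that sample ran from 0.11 for Dcn, which was higher in SNI sample 1 (0.25), to 2.06 for Col3a1. The part of such cells in the value of Vwf was not tested.

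Slco1a4, a carrier of organic anions in the membranes of brain endothelium, had the largest difference of the 10 genes. On 1387093_at its values were 0.13, 0.12 and 0.15 in SNI, against −0.13, −0.22 and −0.12 in control. Both groups were narrow and lay apart, and the difference was 0.29 (SE 0.060, 95% confidence interval 0.15 to 0.43, adjusted p = 0.124). Its p of 0.00124 was the smallest of the 15 probe sets. Leaving out each sample in turn, the difference of this probe set stayed between 0.26 and 0.31, with an adjusted p = 0.0849 without control sample 2, and with the covariate it was 0.25 (adjusted p = 0.644). On 1387094_at the values were 0.022, 0.12 and −0.022 in SNI and −0.030, −0.48 and 0.051 in control. The groups overlapped on this probe set, and its difference of 0.20 (adjusted p = 0.601) was 0.031 without control sample 2. Over both probe sets the difference was 0.24 (SE 0.086, 95% confidence interval 0.044 to 0.44, adjusted p = 0.303), and 0.14 without control sample 2 (adjusted p = 0.170).
Slc2a1, the glucose carrier GLUT1 through which glucose crosses the barrier, was at 0.031, 0.032 and 0.083 in SNI and at −0.031, −0.13 and −0.13 in control. The groups did not overlap, but they were only 0.061 apart at their nearest samples. The difference was 0.15 (SE 0.055, 95% confidence interval 0.018 to 0.27, adjusted p = 0.328), a fold change of 1.11. Its unadjusted p of 0.0302 was above 0.05 when any sample other than control sample 1 was left out (0.0566 to 0.108) and with the covariate, where the difference was 0.049.
Abcb1a encodes P-glycoprotein, the pump that returns many drugs from the endothelium to the blood. Its values were −0.10, 0.10 and −0.054 in SNI and 0.17, −0.23 and 0.011 in control. Every SNI sample lay between the lowest and the highest control sample. The difference was −0.0046 (95% confidence interval −0.25 to 0.24, adjusted p = 0.990), with 0.080 on 1370464_at and −0.090 on 1370465_at. Leaving out any 1 sample other than the second of either group turned its sign. The probe set shared with Abcb1b had a difference of 0.14 (adjusted p = 0.566), with overlapping groups.

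**Figure D3:**
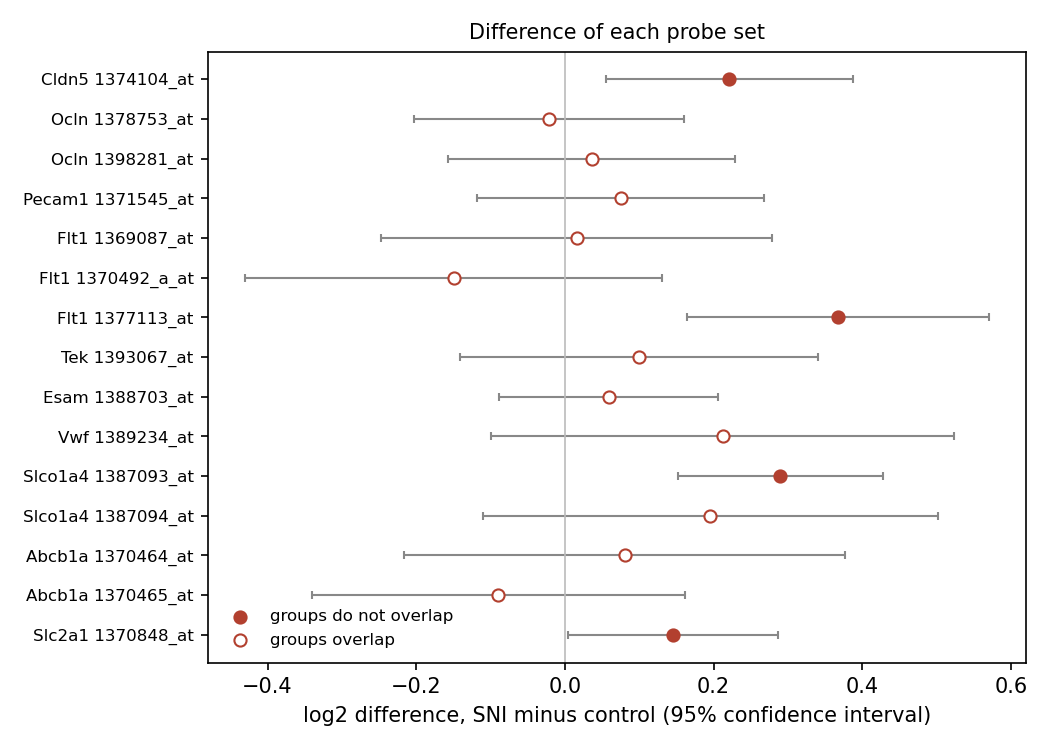
Log2 difference, SNI minus control (x axis), with its 95% confidence interval from limma for each of the 15 probe sets (y axis). Filled points are the 4 probe sets whose groups do not overlap, between 0.15 for Slc2a1 and 0.37 for Flt1 1377113_at; open points are those whose groups overlap.

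Control sample 2 set much of the spread among the 10 genes. It was the lowest of the 6 samples for 7 of them, where it was lowest for 15.6% of all genes, and highest for none, where it was highest for 25.7% of all genes. The mean of the 10 genes was 0.037, 0.041 and 0.048 in the SNI samples, against −0.0047, −0.18 and −0.034 in the control samples. The 3 SNI samples lay close together and above the controls, of which sample 2 was far lower. Without it, 2 of the 10 genes, Cldn5 and Slco1a4, were higher at an unadjusted p under 0.05 (8.53% of all genes), and the median difference was 0.077, whereas without control sample 1 it was 0.14, and 4 of the 10 were higher at that p (4.37% of all genes). Outside the 10, the genes whose values over the 6 samples were most like their mean were Ggct, Itprid2, Gpc2, Col5a3 and Asxl2, with Pearson correlations between 0.986 and 0.993 over 6 samples of the same arrays, picked as the highest among all genes. In each of these 5 control sample 2 was the lowest sample, which follows from picking them to match a mean in which it was far lowest.

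Of 16 further markers of brain endothelium 11 were measured, 7 had a difference above 0 (45.2% of all genes), and none had an unadjusted p under 0.05. Their median difference was 0.051, and their mean was −0.0016, −0.013 and 0.033 in the SNI samples, against −0.057, −0.015 and −0.022 in the control samples. The groups did not overlap, with a gap of 0.0019 between the lowest SNI and the highest control sample. Emcn, an endothelial sialomucin, was nearest, with 0.084, −0.046 and 0.13 in SNI and −0.26, −0.25 and 0.046 in control, a difference of 0.21 (adjusted p = 0.393). Kdr, the main signalling receptor for Vegfa, was at −0.070 (adjusted p = 0.662) and Tie1, the partner of Tek, at −0.054 (adjusted p = 0.811). Bsg, an immunoglobulin-family protein of barrier endothelium that neurons and glia also carry, was at −0.11 (adjusted p = 0.401), with every SNI sample below every control sample (13.7% of all genes). 
Among 16 measured genes of tight and adherens junctions, of 20 listed, 13 had a difference above 0 (45.2% of all genes), and the median difference was 0.051. Their mean lay between 0.011 and 0.030 in the SNI samples and between −0.031 and −0.0031 in the control samples, without overlap. At an unadjusted p under 0.05, 1 was lower (9.19% of all genes) and none was higher (3.96%). The lower one was Afdn, which links junctions to actin, with −0.12, −0.11 and −0.014 in SNI and 0.075, 0.12 and 0.10 in control, a difference of −0.18 (adjusted p = 0.249). The claudin Cldn12 was at 0.12 (adjusted p = 0.380), with every SNI sample above every control sample (6.39% of all genes). The claudin Cldn1 was at −0.053 (adjusted p = 0.704), with every SNI sample below every control sample (13.7% of all genes), and Cldn3 at 0.0070 (adjusted p = 0.988). Tjp1, the scaffold that anchors claudins, was at 0.017 (adjusted p = 0.924).
None of the 14 VEGF and angiopoietin ligands and receptors beside Flt1 and Tek had an unadjusted p under 0.05, and their median difference was −0.020. The ligands Vegfa (−0.0059), Angpt1 (0.014) and Angpt2 (0.0073) all had an adjusted p of 0.953 or more. Among the other ligands, Vegfb was at −0.034, Vegfd at −0.089, Pgf at 0.041 and Vegfc at −0.13 (adjusted p = 0.454). Angpt4 was at −0.11 (adjusted p = 0.419), with every SNI sample below every control sample, as in 13.7% of all genes.
Of 22 measured genes of barrier transport, of 24 listed, 3 were higher at an unadjusted p under 0.05 (3.96% of all genes) and none was lower (9.19%). The median difference was 0.10. Abcc1, an efflux pump, was at 0.11, 0.10 and 0.17 in SNI and at −0.12, −0.10 and −0.24 in control, a difference of 0.28 (adjusted p = 0.196). Ager, a receptor that carries amyloid peptides into the brain, was at 0.28 (adjusted p = 0.335) with overlapping groups, and Slc7a1, a carrier of cationic amino acids, at 0.13 (adjusted p = 0.357). Abcg2, another efflux pump, varied widely, from −0.46 to 0.77 in SNI and from −0.67 to 0.49 in control, with a difference of 0.27 (adjusted p = 0.790).
Beside Slc2a1, 6 of 8 listed glucose transporters were measured. Slc2a3, the carrier of neurons, was at −0.20, −0.052 and −0.025 in SNI and at 0.21, 0.025 and 0.060 in control. All SNI samples were below the controls (13.7% of all genes), and the difference was −0.19 (adjusted p = 0.334), opposite in sign to that of Slc2a1. The difference between both genes was not tested.

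In the remaining lists of the vessel wall few genes passed an unadjusted p of 0.05, and none passed an adjusted p of 0.05. At an unadjusted p under 0.05, 3.96% of all genes were higher and 9.19% lower. Of 15 measured genes of the Wnt pathway of the barrier, Lef1, a transcription factor of the pathway, was higher by 0.18 (adjusted p = 0.357), and Reck, a membrane protein needed to receive Wnt7 ligands, was at −0.25 (adjusted p = 0.338), with the low value of SNI sample 1 (−0.44) beside −0.029 and −0.18. Of 14 genes of leukocyte adhesion and endothelial activation only Angptl4, a secreted inhibitor of lipoprotein lipase, was higher at that p, by 0.43 (SE 0.10, adjusted p = 0.203). It was at 0.10, 0.16 and 0.48 in SNI and at −0.18, −0.10 and −0.25 in control. Icam1 (−0.053) and Vcam1 (0.16), which bind leukocytes, had overlapping groups.
Of 14 endothelial transcription factors, Klf2 (0.28 over 5 probe sets, adjusted p = 0.234) and Epas1, a hypoxia-inducible factor abundant in endothelium (0.17, adjusted p = 0.274), were higher at an unadjusted p under 0.05. The study chose Klf2 on these samples, so it is not independent evidence of the direction. Epas1 was at 0.090, 0.020 and 0.11 in SNI and at −0.046, −0.11 and −0.15 in control, without overlap (6.39% of all genes with SNI above control). Of 14 basement membrane genes only Lama4, a laminin chain of vessel walls, was higher at that p, by 0.16 (adjusted p = 0.297), while Col4a1 was at −0.0047. 
Among 14 markers of pericytes and smooth muscle, the cells around the endothelium, 11 had a difference above 0, and the median was 0.059. Of these markers Cspg4, which oligodendrocyte precursors also carry, was higher by 0.29 (adjusted p = 0.221) and Mcam, which endothelium also carries, was at −0.20 (adjusted p = 0.249). Of 5 measured blood cell markers, with a median of 0.13, the hemoglobin gene Hbb (0.49, adjusted p = 0.259) and Alas2 (0.44, adjusted p = 0.297) were higher at an unadjusted p under 0.05. Of 9 microglia markers 6 were (3.96% of all genes), C1qa (0.36), C1qb (0.26) and P2ry12 (0.39) with the smallest p, and the median of the 9 was 0.26. Of 8 astrocyte markers 1, Aldoc, was (0.16, adjusted p = 0.356). Of these 8, 7 had a difference above 0, and their median was 0.094, where that of the 10 endothelium and barrier genes was 0.089. Of 8 neuron markers none was higher and 2, Snap25 (−0.13) and Syt1 (−0.38), were lower at that p (9.19% of all genes), with a median of −0.14. The medians of the 10 markers of meninges and fibroblasts (−0.096) and the 5 of choroid plexus (0.039) came with no gene past that p.

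**Figure D4:**
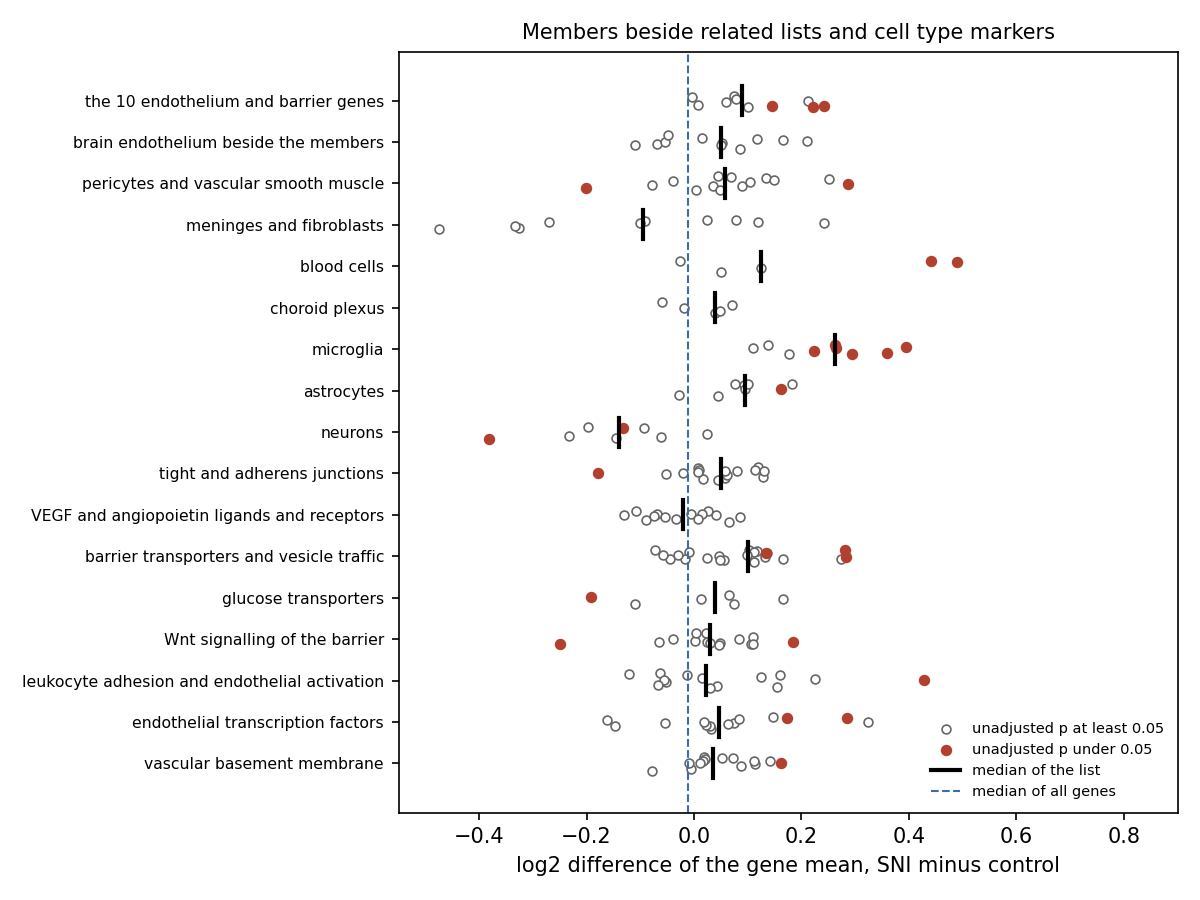
Log2 difference of each gene, SNI minus control (x axis), for the 10 endothelium and barrier genes and the related lists and cell type markers (y axis, points spread vertically for sight only). Filled points have an unadjusted p under 0.05 by limma, black bars are list medians, such as 0.089 for the 10 genes and 0.26 for microglia, and the dashed line is the median of all genes (−0.011).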

How the data were processed

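RMA correction, log2 transformation and quantile normalization were done by the authors. In the deposited log2 values every probe set also has a median of 0 over the 6 arrays (within 4.78e-07), a step whose origin, like the software versions, is not given in the sources used here. Groups came from the sample titles. After 57 array control probe sets were left out, 31042 were tested, of which 20826 carried 1 symbol in the platform annotation, 436 several and 9780 none. A gene's value was the mean of all probe sets with its symbol alone (14217 genes). Groups were compared with limma 3.58.1 (lmFit, eBayes) in R 4.3.3, two-sided and without covariates. Adjustment followed Benjamini and Hochberg over all genes or all probe sets, and the fit was tested on simulated data. Plots used Python 3.11.15 and matplotlib 3.10.9. Signal over background could not be read, and the number of arrays limits the precision.

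Named genes were the 10 members, up to 3 genes of each related list or marker list by smallest unadjusted p under 0.05, and the 5 genes most like the members' mean. Bsg, Emcn, Kdr, Tie1, Cldn1, Cldn3, Cldn12, Tjp1, the ligands, Abcg2, Icam1, Vcam1, Col4a1, Dcn and Col3a1 were named after their values were seen. Members and lists were chosen with earlier results of these data known. The alternatives were repeated quantile normalization, aligned array medians, the methods' t-test, the replicate number as a block, robust variance, probe sets with 1 symbol only, the hybridization controls as a covariate, the median of a gene's probe sets, and each sample left out in turn.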

Additional observations from a re-analysis of the deposited data

Results flagged for a closer look

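The 18 hybridization controls, which are outside the comparison of genes, were higher on the SNI arrays by 0.27 on the log2 scale as the mean per array (0.19, 0.054 and 0.097 in SNI, against −0.047, −0.20 and −0.22 in control). With their mean as a covariate none of the 10 endothelium and barrier genes had an unadjusted p under 0.05, where 4.05% of all genes were higher and 4.42% lower at that p, and the median difference of the 10 genes was 0.065. Because this covariate differs with the groups, such a fit cannot separate it from the injury.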

How the results depend on the processing

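None of the 10 genes and none of the 4 probe sets without overlap passed an adjusted p of 0.05 under any alternative run. Cldn5, Esam, Vwf, Slco1a4 and Slc2a1 were higher in the SNI group in all 13 alternatives, and Cldn5 had an unadjusted p under 0.05 in 12 of them, Slco1a4 in 10 and Slc2a1 in 6. The methods' t-test, the replicate block and robust variance leave the difference itself unchanged, so they could not turn its sign. Neither could the median of probe sets for a member with 1 or 2 probe sets, which is every member but Flt1. The covariate of hybridization controls turned Ocln (−0.13), Pecam1 (−0.14) and Tek (−0.20), and the median of probe sets turned Flt1 (−0.011). Leaving out each sample in turn moved Ocln between −0.065 and 0.065 and Abcb1a between −0.11 and 0.089.

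Of the 10 genes, 3 had an unadjusted p under 0.05, 0 with the covariate, and 1 to 4 with each sample left out, 1 without SNI sample 2. Of all genes 1870 had, 1204 with the covariate, and 1146 to 3285 with each sample left out, highest without control sample 2. Of all probe sets 4055 had, 2660 with the covariate, and 2644 to 6630 with each sample left out. At an adjusted p of 0.05, 10 probe sets passed, 66 with quantile normalization repeated, 0 with the methods' t-test, 0 among probe sets with 1 symbol only, and 0 to 35 with each sample left out. The causes were not tested.

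With the replicate number as a block, 9 probe sets passed, and 2 of the 10 genes, Cldn5 (unadjusted p = 0.0167) and Slco1a4 (unadjusted p = 0.029), were higher at an unadjusted p under 0.05 (3.51% of all genes), while Slc2a1 was not (unadjusted p = 0.0675). Over all probe sets, the deviations of same-numbered samples from their group means had correlations of 0.0085, −0.0098 and −0.069. With 3 samples a group these cannot show whether such samples share more than a number.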
